A study of Rattus norvegicus with 6 samples.

Results

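Zinc transporter genes were compared between pancreatic islets of adult rats and of rats aged 10 days (P10). The genes were 10 members of the SLC30 and SLC39 families, found on the array by matching each probe's RefSeq transcript to a rat gene symbol. Of these 10 genes, 9 had at least 1 probe, which gave 10 probes, and all 9 passed the filter on dim signals. For Slc30a7 no probe was matched, so it has no value here. The whole series held 11410 tested genes with a symbol.

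Islets were isolated with collagenase, and total RNA was labelled with Cy3 and hybridised to a 1-colour Agilent array for mRNAs and long non-coding RNAs. The adult group had 3 arrays, each from 1 adult male rat. The P10 group had 3 arrays, each from a pool of rats on postnatal day 10. Rat strain, adult age, pool size and the sex of the P10 rats were not given in the sources used here.

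Zinc is stored at high concentration in the secretory granules of beta cells, where it packs insulin into crystals. SLC30 proteins (ZnT transporters) carry zinc out of the cytosol, either out of the cell or into organelles and granules. SLC39 proteins (ZIP transporters) carry zinc the other way, into the cytosol from outside or from organelles. Metallothioneins bind zinc in the cytosol, and the transcription factor MTF-1 senses free zinc and switches on metallothionein genes and Slc30a1.

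The scanner marked 17823 to 18725 of 24684 probes on an array as well above background, and 0 spots as saturated. Levels are log2 signals relative to each array's 75th percentile, and changes are adult minus P10 on that scale with their standard error (SE). Adult arrays 2 and 3 differed by about the noise of repeated spots (variance ratio 1.12 over 2947 probes), as did P10 arrays 1 and 2 (0.758), and each pair was averaged and counted as 1 sample. That leaves n = 2 per stage in the tests, and the number of arrays limits the precision. A fit without Adult replicate 1 or on slide 1 alone has 1 counted adult sample, and one without P10 replicate 3 has 1 counted P10 sample. Such a fit takes its spread from the other stage (on slide 1, from the P10 arrays), and the lone sample is assumed to vary like it. P10 array 3 was also near spot noise against P10 arrays 1 and 2, at 0.969 and 0.895. It was kept apart because its differences recurred at second probes of the same gene (Spearman's rho 0.35 and 0.36 over 184 genes, against 0.14 between P10 arrays 1 and 2). Adult array 1 stood apart from the other adult arrays, with ratios of 17.3 and 14.4. It had the recorded scan date of the P10 arrays (called slide 1), while adult arrays 2 and 3 shared another (slide 2). Positions 1 and 2 were used under both dates, so the arrays were not all on 1 slide. That arrays of 1 scan date shared a slide is assumed. The median change over all tested probes was -0.23, or -0.02 with quantile normalization.

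Of the 9 zinc transporter genes tested, 3 were higher in adult islets, 3 were lower and 3 did not pass the test at a limma adjusted p under 0.05. The higher ones were Slc30a8, Slc30a1 and Slc30a5, and the lower ones were Slc30a2, Slc39a4 and Slc39a14. Across all named genes tested 52.5% were called in either direction, 23.7% higher and 28.8% lower, so the count of 6 of 9 is near the background. The changes ran from -4.29 to 2.87 with a median of -0.19, beside a median of -0.13 over all named genes. With quantile normalization 3 were again higher and 3 lower, against 57.2% of named genes called, 30% higher and 27.2% lower. On the 6 single arrays the stages did not overlap for 7 of the 9 genes, as for 78.1% of all named genes.

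**Figure D1:**
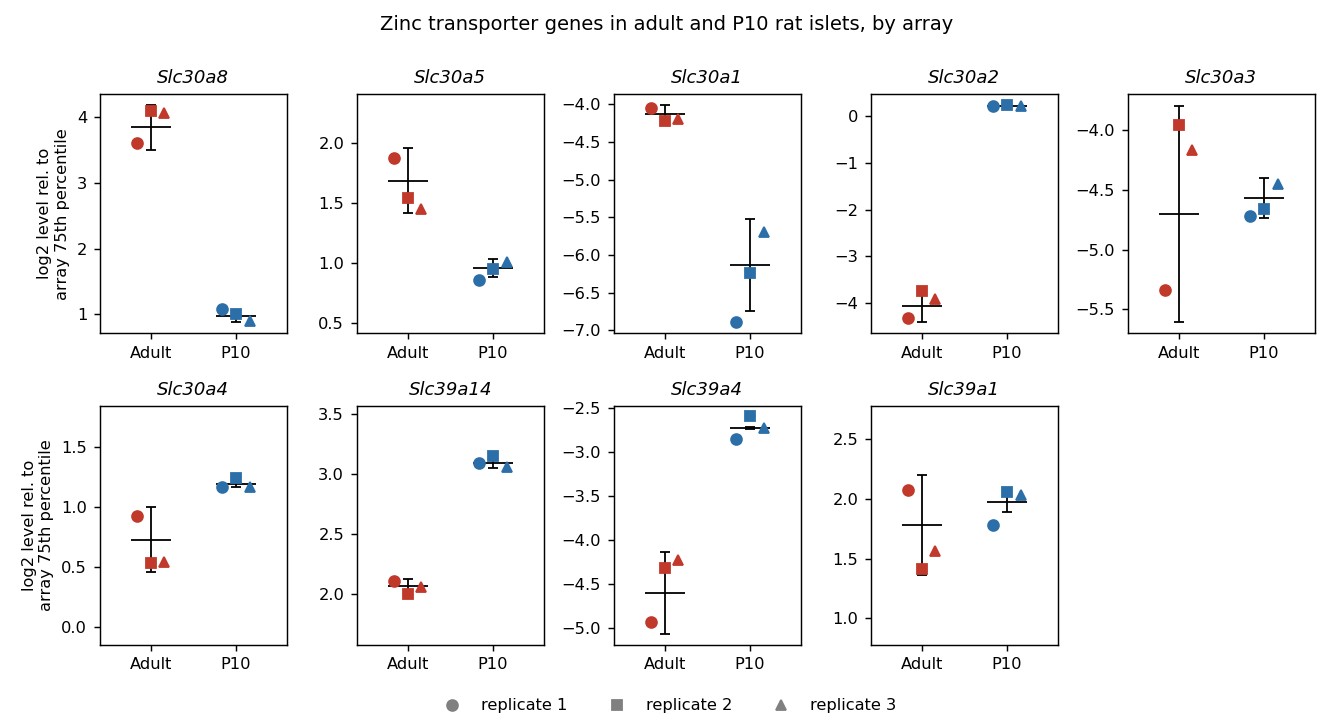
Log2 level relative to the array's 75th percentile (vertical axis, scaled per gene) of 9 zinc transporter genes in adult (left, red) and P10 (right, blue) islets, 1 point per array, with a black bar for the mean of the counted samples and its SD (n = 2). Adult and P10 points are separated for all genes except Slc30a3 and Slc39a1, and adult replicate 1 lies lowest of all 6 arrays for Slc30a3, at -5.34.

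Slc30a8 (probe on NM_001130538.1) encodes ZnT8, the transporter that loads zinc into insulin granules. Its level was 3.61, 4.10 and 4.07 on adult arrays 1, 2 and 3, against 1.08, 1.01 and 0.91 on P10 arrays 1, 2 and 3. All adult arrays lay above all P10 arrays, and the stages did not overlap. The change was 2.87 (SE 0.22, limma adjusted p = 0.00257), a 7.32-fold rise. In scanner units the processed signal was 32000 to 35200 in adults and 1878 to 2144 at P10. Its change ranked 288th of 11410 named genes counted from the steepest rise. In bulk islets, more cells that express a gene and more of its RNA per cell cannot be told apart.

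The genes of the peptides stored with zinc in the same granule did not show a rise of this size. Their probes were very bright, and the 75th percentile subtracted was 10.93 to 11.36 log2 on adult arrays and 9.92 to 9.99 on P10 arrays. Whether a rise could still show at this brightness was not tested. Ins1 changed by -0.93 (SE 0.20, limma adjusted p = 0.0248). Ins2 stood at -0.58 and Iapp, the amyloid peptide gene, at 0.47, and neither passed the test (limma adjusted p = 0.230 and 0.109). With quantile normalization Iapp passed, at 1.50 (limma adjusted p = 0.00158). Ins1 and Ins2 changed sign there, to 0.18 and 0.45, and neither passed (limma adjusted p = 0.291 and 0.183), while Slc30a8 stood at 2.95. Of 7 beta cell markers tested, 4 were higher in adults, 1 lower and 2 not called, with a median change of 2.67. Across all named genes 23.7% were higher and 28.8% lower. With quantile normalization 5 of the 7 were higher and 0 lower. The 4 that rose were Nkx6-1 at 2.92, Slc2a2 at 3.18, Ucn3 at 2.67 and the incretin receptor gene Glp1r at 3.19. Summed over the list, these markers reached 252.8 to 353.1 times the 75th percentile signal on adult arrays and 328 to 363.2 times on P10 arrays. Most of this sum came from Ins1, Ins2 and Iapp, at 5.69 to 6.87 log2 on adult arrays and 6.07 to 7.43 on P10 arrays. The part of the beta cell markers in the rise of Slc30a8 was not tested.

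Slc30a5 (probe on NM_001106404.1) encodes ZnT5, which supplies zinc to enzymes in the early secretory pathway. Its level was 1.88, 1.54 and 1.45 on adult arrays 1 to 3, against 0.86, 0.94 and 1.01 on the P10 arrays. Every adult array was higher, by less than for Slc30a8. The change was 0.73 (SE 0.19, limma adjusted p = 0.0400), a 1.66-fold rise. Without P10 replicate 3 the change was 0.79, with a limma adjusted p of 0.223.

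Slc30a1 (probe on NM_022853.1) encodes ZnT1, which exports zinc across the plasma membrane. Its level was -4.04, -4.22 and -4.19 on adult arrays 1 to 3, against -6.90, -6.24 and -5.70 on the P10 arrays. The adult arrays lay close together and above all P10 arrays, which were spread over more than 1 log2 unit. The change was 2.01 (SE 0.34, limma adjusted p = 0.0139), a 4.02-fold rise. The probe was dim: processed signals were 106.9 to 159.2 in adults and 8.53 to 19.3 at P10, where it was well above background on 2 of 3 arrays. With normexp background correction, which adds an offset of 50 to all signals, the change shrank to 0.40 (limma adjusted p = 0.196).

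Slc30a2 encodes ZnT2, which fills vesicles and secretory granules with zinc and is known from the zymogen granules of pancreatic acinar cells and from mammary gland. It showed the largest change of the 9 genes. At its brighter probe, designed on the RefSeq transcript NM_001083122.1, the level was -4.31, -3.73 and -3.92 on adult arrays 1 to 3, against 0.23, 0.24 and 0.22 on the P10 arrays. The P10 arrays were nearly equal and all far above the adult ones. The change was -4.29 (SE 0.22, limma adjusted p = 0.00150), a level 19.6-fold lower in adults. A second probe, on NM_012890.2, stood at -4.30, -4.12 and -3.92 in adults and 0.27, 0.25 and 0.23 at P10, a change of -4.40 (SE 0.16, limma adjusted p = 0.00131). The change at the brighter probe ranked 166th of 11410 named genes counted from the steepest fall. Both probes thus fell by similar amounts, and whether the probes share sequence is not known from the files.

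Markers of acinar cells were lower on the same adult arrays. Of 12 tested acinar markers 10 were lower and 0 higher, beside 28.8% and 23.7% of all named genes. Their median change was -1.50, and 12 of 12 were well above background on all arrays of both stages. Their summed level was 555.6 to 794.5 times the 75th percentile signal in adults and 1653 to 1755 times at P10. Enzyme genes among them were about as bright as Ins1, with Cela2a at 6.37 to 6.86 in adults and 7.68 to 7.87 at P10. The limit given for the insulin genes holds for them too. With quantile normalization 5 of the 12 were lower and 1 higher, with a median of -0.40, while Slc30a2 stood at -4.10. Among these markers the acinar transcription factor genes Rbpjl and Ptf1a fell by 6.12 and 4.08 on the log2 scale, while the amylase gene Amy2a3 fell by 1.24 (-0.10 and not called with quantile normalization). Enterocyte markers were lower on these arrays too, 10 of 10, with a median of -8.85, or -8.35 with quantile normalization. The part of either list in the fall of Slc30a2 was not tested.

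Slc39a14 (probe on NM_001107275.1) encodes ZIP14, a plasma membrane importer of zinc that also carries iron and manganese. Its level was 2.11, 2.00 and 2.06 on adult arrays 1 to 3, against 3.09, 3.15 and 3.06 on the P10 arrays. Each stage was tight and the stages did not overlap. The change was -1.02 (SE 0.13, limma adjusted p = 0.00742), 2.03-fold lower in adults. Without P10 replicate 3 the change was -1.05, with a limma adjusted p of 0.111.

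Slc39a4 (probe on NM_001077669.1) encodes ZIP4, the importer that takes up dietary zinc in the small intestine. Its level was -4.93, -4.32 and -4.23 on adult arrays 1 to 3, against -2.85, -2.59 and -2.73 on the P10 arrays. All adult arrays were lower, and adult array 1 was the lowest. The change was -1.88 (SE 0.27, limma adjusted p = 0.00930), 3.67-fold lower in adults. With quantile normalization it was smaller, at -1.54 (limma adjusted p = 0.00237). Its probe was dim, with processed signals of 86.1 to 104.2 in adults and 141.2 to 160.3 at P10. Enterocyte markers fell on the same arrays, 10 of 10 tested beside 28.8% of all named genes, with a median of -8.85. For 7 of them each of the 3 adult arrays gave a signal well above background, and these changed by -10.12 to -1.62. Of the others, Fabp1 and Fabp2 were well above background on 1 adult array and Apoa4 on none. These genes passed the filter through their P10 arrays alone. Apoa4 was at least 7604-fold lower in adults, a bound set by the lowest well-measured signals of the adult arrays. The median was the same with Apoa4 at that bound. Their summed level was 7.73 to 8.63 times the 75th percentile signal in adults and 275.9 to 290.8 times at P10. In adults most of this sum came from Vil1, at 2.89 to 3.05 log2, with Apob next at -2.79 to -2.51. The part of the enterocyte markers in the fall of Slc39a4 was not tested.

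The remaining 3 genes were not called. Leaving out adult array 1 changed the call of each. Slc30a3 (probe on NM_001013243.1), which encodes the synaptic vesicle transporter ZnT3, stood at -5.34, -3.95 and -4.17 on adult arrays 1 to 3 and at -4.72, -4.66 and -4.45 on the P10 arrays. Adult array 1 was below and adult arrays 2 and 3 above all P10 arrays, so the stages overlapped. The change was -0.13 (95% interval -1.49 to 1.22, limma adjusted p = 0.834), and the sign turned to 0.36 with quantile normalization. With a single adult sample it passed in opposite directions, at -0.77 on slide 1 alone (limma adjusted p = 0.0115) and at 0.51 without Adult replicate 1 (limma adjusted p = 0.0382). In both fits the spread comes from the P10 arrays, so these calls do not settle a direction.

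Slc30a4 (probe on NM_172066.1) encodes ZnT4, of endosomes and secretory vesicles. It stood at 0.92, 0.53 and 0.54 on adult arrays 1 to 3 and at 1.17, 1.25 and 1.17 on the P10 arrays, with adult array 1 nearest to P10. The change was -0.46 (95% interval -0.99 to 0.07, limma adjusted p = 0.110). With every array as its own sample it passed, at -0.53 (limma adjusted p = 0.0117). Without Adult replicate 1, where the spread comes from the P10 arrays, it stood at -0.65 (limma adjusted p = 0.00628). Slc39a1 (probe on NM_001134577.1), which encodes the widely expressed plasma membrane importer ZIP1, stood at 2.07, 1.41 and 1.56 on adult arrays 1 to 3 and at 1.78, 2.06 and 2.03 on the P10 arrays. Adult array 1 was the highest of all 6. The change was -0.19 (95% interval -0.89 to 0.51, limma adjusted p = 0.543), or -0.49 without Adult replicate 1 (limma adjusted p = 0.0195, with the spread of the P10 arrays).

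The other genes of both families, 14 in all, had 12 genes with a probe and 10 tested. Of these 10, 2 were higher in adults, 3 lower and 5 not called, a share near the 52.5% of all named genes. Slc39a8, whose product ZIP8 imports zinc, manganese and iron, stood at -1.19, -1.41 and -1.39 on adult arrays 1 to 3, against 2.45, 2.55 and 2.45 on the P10 arrays. The stages were far apart, and the change was -3.77 (SE 0.15, limma adjusted p = 0.00131), 13.7-fold lower in adults. Slc30a10 encodes a transporter known as a manganese exporter. It was not well above background on any adult array, with processed signals of 2.39 to 2.75 in adults and 22.2 to 26.2 at P10. It passed the filter through its P10 arrays alone, where it was high, so its place among the 3 lower genes is no independent support. Its call (limma adjusted p = 0.00142) belongs to the fitted change of -4.40, which rests on adult signals near background. It was at least 6.18-fold lower in adults, a bound set by the lowest well-measured signals of the adult arrays. With normexp background correction the change was -1.28 and did not pass (limma adjusted p = 0.0969), a smaller change than that bound.

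Slc39a7, whose product ZIP7 releases zinc from the endoplasmic reticulum, was lower by a smaller step, at 3.22, 3.15 and 3.05 in adults and 3.95, 4.14 and 4.17 at P10. Its change was -0.95 (limma adjusted p = 0.0103). Slc39a6, which encodes the plasma membrane importer ZIP6, rose by 1.00 (limma adjusted p = 0.00880), and Slc30a9, which encodes ZnT9, rose by 0.85 (limma adjusted p = 0.0320). Slc39a5 stood at -0.66 (limma adjusted p = 0.0553) and Slc39a10, which encodes the importer ZIP10, at 0.78 (limma adjusted p = 0.0503), both just short of the threshold. With quantile normalization Slc39a10 passed, at 0.76 (limma adjusted p = 0.0364), and Slc39a5 stood at -0.17. Slc39a2 and Slc39a12 were too dim to test, and Slc30a6 and Slc39a13 had no matched probe. Without P10 replicate 3 Slc39a7, Slc39a6 and Slc30a9 no longer passed, at -0.89, 1.07 and 0.76 (limma adjusted p = 0.161, 0.108 and 0.238). Slc39a7 did not pass with median scaling either, at -0.65 (limma adjusted p = 0.0700), nor Slc30a9 with normexp, at 0.80 (limma adjusted p = 0.0551).

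Counted by family, members and other genes together, 4 of 8 tested SLC30 genes were higher in adults and 2 lower, while 1 of 11 tested SLC39 genes was higher and 4 lower, beside 23.7% of all named genes higher and 28.8% lower. The 2 lower SLC30 genes include Slc30a10, which passed the filter through its P10 arrays alone. The median change was 0.30 for SLC30 and -0.66 for SLC39 genes. With quantile normalization the counts were 4 higher and 2 lower for SLC30, and 2 and 4 for SLC39, beside 30% of all named genes higher and 27.2% lower. With all 6 arrays as separate samples they were 4 and 3 for SLC30, and 2 and 7 for SLC39, against 70.6% of all named genes called, 32.3% higher and 38.3% lower. These are descriptions of the lists, and no difference between the families was tested.

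**Figure D2:**
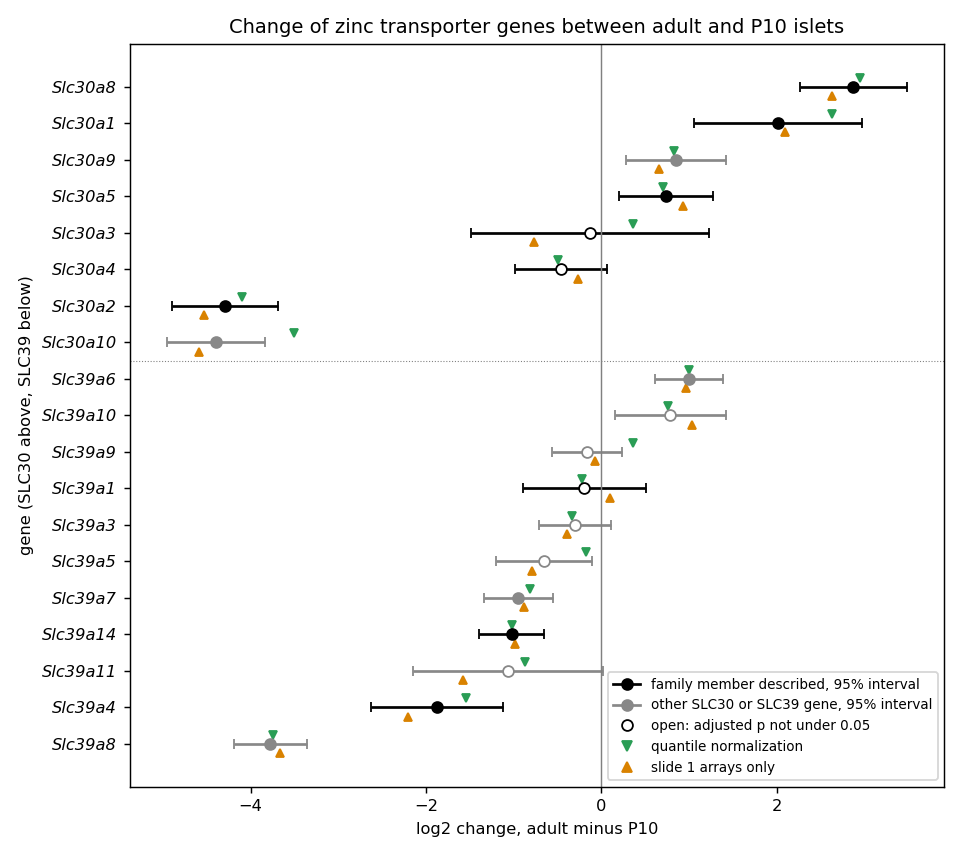
Log2 change, adult minus P10 (horizontal axis), of the tested SLC30 genes (above the dotted line) and SLC39 genes (below), with 95% intervals, filled where the adjusted p was under 0.05. Slc30a8 at 2.87 and Slc30a2 at -4.29 mark the ends of the range of the 9 genes, and the triangles show that quantile normalization and slide 1 alone kept the side of 0 for each called gene. The point of Slc30a10 is the fitted value of a probe not well above background in adults, where the text gives a bound.

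Genes that bind, sense or depend on zinc were examined beside the transporters. Of 9 tested, 4 were higher in adults, 3 lower and 2 not called, beside 52.5% of all named genes called, 23.7% higher and 28.8% lower. The metallothionein genes Mt1 and Mt2A, which encode the main cytosolic zinc-binding proteins, fell together. Mt1 stood at 2.81 and 2.97 on adult arrays 1 and 2, against 7.15, 7.12 and 7.0 on the P10 arrays, and its spot on adult array 3 was left out as an outlier. Mt2A stood at 1.03 and 1.38 on adult arrays 1 and 3, against 5.37, 5.30 and 5.36 on the P10 arrays, and its spot on adult array 2 was left out for the same reason. No measured adult value came near a P10 value. The changes were -4.18 (SE 0.15, limma adjusted p = 0.00131) for Mt1, which is 18.1-fold lower in adults, and -4.14 (SE 0.18, limma adjusted p = 0.00135) for Mt2A, 17.7-fold lower. With quantile normalization they were smaller, at -3.64 for Mt1 and -3.88 for Mt2A. At P10 Mt1 was nearly as bright as Ins1, which stood at 7.23 to 7.43, and whether this limits its change was not tested. Enterocyte and acinar markers were lower on the same arrays, as given above for Slc39a4 and Slc30a2, and their part in the falls of Mt1, Mt2A and Slc39a8 was not tested.

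Mt3, a metallothionein gene best known from brain, went the other way. It stood at -0.57, -0.03 and -0.09 on adult arrays 1 to 3, against -2.56, -2.53 and -2.57 on the P10 arrays, a change of 2.25 (SE 0.22, limma adjusted p = 0.00415). Tmem163, which encodes a zinc efflux protein of vesicles and the plasma membrane, stood at 1.52, 1.90 and 2.02 in adults and -1.57, -1.60 and -1.70 at P10. Its change of 3.38 (SE 0.21, limma adjusted p = 0.00187), a 10.4-fold rise, exceeded that of Slc30a8. Cpe, the gene of the zinc-dependent carboxypeptidase that trims prohormones in granules, rose by 1.52 (limma adjusted p = 0.00894), or by 2.29 with quantile normalization and 2.30 with the authors' log2 values. Cpd, which encodes a related carboxypeptidase of the Golgi, stood at -0.79 (limma adjusted p = 0.0143), or at -0.48 and short of the threshold with median scaling (limma adjusted p = 0.0643). The zinc receptor gene Gpr39 and Ide, which encodes the zinc metalloprotease that degrades insulin, were not called, at -0.30 and -0.76. Without P10 replicate 3 Cpe and Cpd no longer passed, at 1.53 and -0.82 (limma adjusted p = 0.0578 and 0.186).

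Mtf1, the gene of the metal-sensing factor itself, rose by 1.16 (SE 0.14, limma adjusted p = 0.00679). It was dim, with processed signals of 63.6 to 79.6 in adults and 11.3 to 16.1 at P10, where 2 of 3 arrays were well above background. With normexp background correction its change was -0.18 (limma adjusted p = 0.660). The offset of 50 added there was larger than its processed P10 signals, which narrows the gap between the stages. Subtracting a 75th percentile that is higher on adult arrays can then push the change of such a dim probe below 0. Mtf1 thus has no usable direction under this setting. Without P10 replicate 3 it stood at 1.22 (limma adjusted p = 0.0802).

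**Figure D3:**
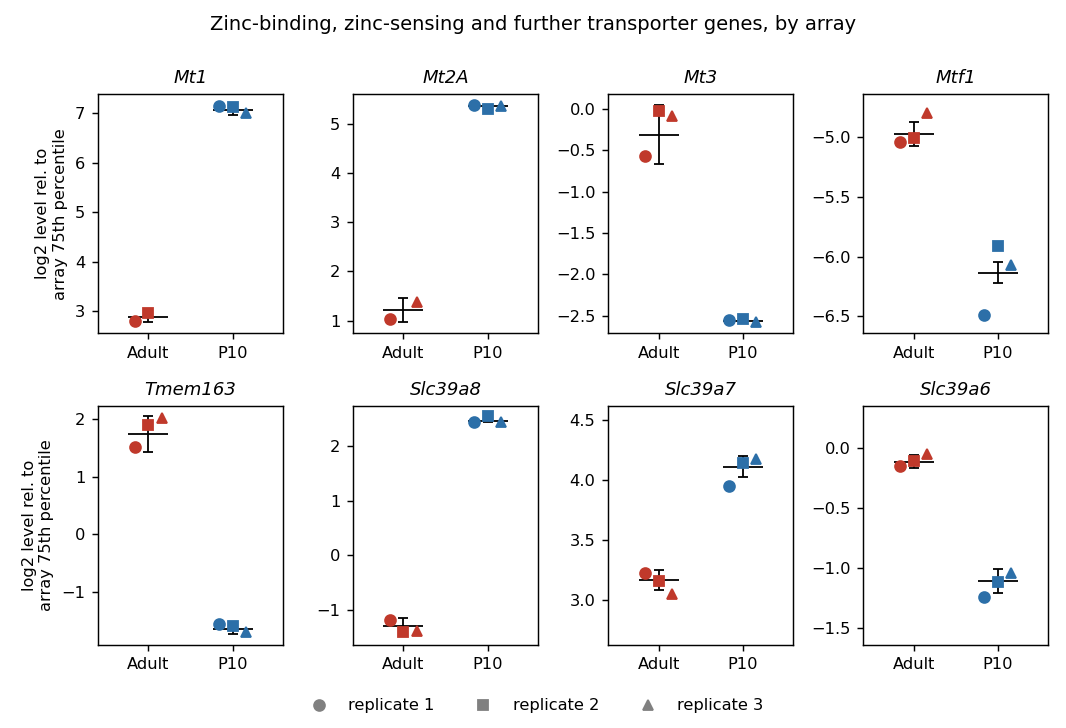
Log2 level relative to the array's 75th percentile (vertical axis, scaled per gene) of 5 zinc-binding, zinc-sensing and efflux genes and 3 SLC39 genes in adult (left, red) and P10 (right, blue) islets, 1 point per array, with a black bar for the mean of the counted samples and its SD (n = 2). Mt1, Mt2A, Slc39a8 and Slc39a7 are lower in adults and Mt3, Mtf1, Tmem163 and Slc39a6 higher, and Mt1 and Mt2A each lack 1 adult point.

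MTF-1 binds short metal response elements in promoters, so the RefSeq promoters (GRCr8 build) were searched for their core, written TGCACNC and TGCGCNC, on both strands in the 250 bases before the start. The core was present in 20.6% of 33465 promoters of this length, and 4.9% held at least 2. RefSeq promoters were at hand for 6 of the 10 zinc transporter genes, and 5 of these held a core. Those of Slc30a1, Slc30a2, Mt1 and Mt2A are shown because metallothionein genes and Slc30a1 are known targets of MTF-1 and Slc30a2 fell by nearly the same amount as Mt1. Capitals mark the cores, including those on the opposite strand.
Slc30a1, chr13:106021769-106022018, plus strand: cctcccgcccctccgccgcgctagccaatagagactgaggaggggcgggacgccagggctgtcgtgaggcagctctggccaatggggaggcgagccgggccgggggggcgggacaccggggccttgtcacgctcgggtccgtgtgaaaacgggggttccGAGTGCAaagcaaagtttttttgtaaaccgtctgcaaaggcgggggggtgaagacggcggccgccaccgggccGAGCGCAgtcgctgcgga
Slc30a2, chr5:151843201-151843450, plus strand: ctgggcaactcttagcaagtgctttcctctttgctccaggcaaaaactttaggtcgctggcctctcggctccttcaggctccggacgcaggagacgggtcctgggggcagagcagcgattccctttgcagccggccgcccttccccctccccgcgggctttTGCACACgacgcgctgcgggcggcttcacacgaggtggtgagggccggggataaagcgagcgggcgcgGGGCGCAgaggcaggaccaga
Mt1, chr19:10832976-10833225, minus strand: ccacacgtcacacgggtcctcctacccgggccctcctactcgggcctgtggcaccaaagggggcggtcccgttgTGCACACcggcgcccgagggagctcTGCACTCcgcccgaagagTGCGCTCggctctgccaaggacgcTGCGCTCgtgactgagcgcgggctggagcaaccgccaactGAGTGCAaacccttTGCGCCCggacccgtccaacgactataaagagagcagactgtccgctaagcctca
Mt2A, chr19:10838709-10838958, minus strand: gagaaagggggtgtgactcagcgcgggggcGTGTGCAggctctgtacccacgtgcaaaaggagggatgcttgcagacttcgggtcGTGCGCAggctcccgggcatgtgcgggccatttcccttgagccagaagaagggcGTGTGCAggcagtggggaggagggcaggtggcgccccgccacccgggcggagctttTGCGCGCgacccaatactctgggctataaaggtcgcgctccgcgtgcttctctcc

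Mt1 held 6 cores and Mt2A 4, while Slc30a1 and this promoter of Slc30a2 held 2 each. A second annotated promoter of Slc30a2 held 0. Of these genes Mt1, Mt2A and Slc30a2 were lower in adults and Slc30a1 higher, so genes with cores went in both directions. The uncalled Slc30a4 and the higher Slc30a5 held 2 each and Slc39a1 held 1, whereas Slc30a3 held 0. Slc39a8, which fell by 3.77 on the log2 scale, had 0 in its window. A core is a description of these letters, and binding was not measured.

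The genes whose profile over the 6 arrays was closest to each of 3 zinc transporter genes were found by the root mean square difference of centred log2 levels, among 11172 named protein-coding genes. Closest to Slc30a8 were Pcgf1, Cytl1 and Crp, with differences of 0.05, 0.06 and 0.06. Closest to Slc30a2 were Slc7a7, an amino acid transporter gene, Dpep1, a dipeptidase gene, and Asb3, with 0.04, 0.05 and 0.07. Closest to Slc39a4 were Sh3tc1, Nfx1 and Lgals5, with 0.04, 0.08 and 0.09. The arrays of 1 stage are not independent, and the likeness is mainly one of equal change between the stages.

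The remaining marker counts stand beside 23.7% of all named genes higher and 28.8% lower. Of 8 tested leukocyte markers 8 were higher in adults, with a median change of 1.85. Their summed level was 11.6 to 14.1 times the 75th percentile signal in adults and 4.62 to 4.97 times at P10. Cd79b and Itgam were well above background on 0 P10 arrays and passed the filter through the adult arrays alone. Of 5 alpha cell markers tested, 3 were higher and 2 lower. The duct and the stroma lists each had 1 of 3 higher and 2 lower. Of 5 hepatocyte markers 3 were higher and 1 lower, and the 4 endothelial markers stood between -1.44 and 0.79. Ttr, at 1.03, is on both the alpha cell and the hepatocyte list and was counted as higher in each. Insulin and glucagon genes were bright at both stages, with Ins1 at 6.19 to 6.61 in adults and 7.23 to 7.43 at P10. Gcg stood at 6.22 to 6.81 and 7.22 to 7.32. Acinar enzyme genes were about as bright, with Cela2a at 6.37 to 6.86 and 7.68 to 7.87. The enterocyte marker Fabp1 stood at 6.62 to 6.71 at P10. The arrays thus carried strong acinar signal, and at P10 enterocyte marker signal, beside the islet hormones.

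**Figure D4:**
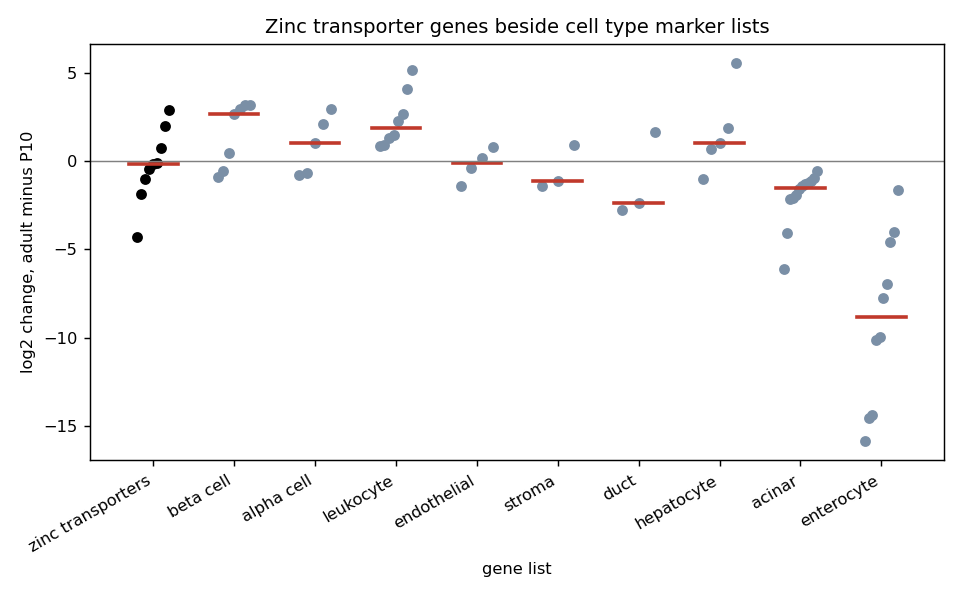
Log2 change, adult minus P10 (vertical axis), of the 9 tested zinc transporter genes (black) and of cell type markers (blue-grey), 1 point per gene, with a red line at each list's median. The zinc transporter genes spread from -4.29 to 2.87 around a median of -0.19, while all 10 enterocyte markers lie below 0 and all 8 leukocyte markers above it. The lowest enterocyte points include 3 fitted values of probes well above background on at most 1 adult array. The highest leukocyte points, Cd79b and Itgam, are fitted values of probes not well above background on any P10 array.

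Within slide 1, which held adult array 1 and all P10 arrays, 7 of the 9 zinc transporter genes were called against 76.8% of named genes, with all of the spread taken from the P10 arrays. There Slc30a8 stood at 2.63, Slc30a5 at 0.93, Slc30a1 at 2.09, Slc30a2 at -4.53, Slc39a14 at -0.98 and Slc39a4 at -2.20. All 6 called genes thus kept their direction with the slide held constant, although 1 adult array carries these values. No such value exists for slide 2, which carried adult arrays alone.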

How the data were processed

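The authors deposited a scanner file of Cy3 spot intensity for each array. The submitters' processing notes name Agilent Feature Extraction, version 11.0.1.1. Its processed signal carries no scaling across arrays. Normalized log2 values were deposited as well, by a method not given in the sources used here. These log2 values served as an alternative. Probes were named by matching their transcripts to RefSeq genes of GRCr8, which named 14294 of 24684 probes. The array was annotated on an older build, so no probe coordinates are given. Each probe of the zinc genes had 1 spot per array. Spots marked as outliers were left out, log2 signals were averaged per probe, and each array's 75th percentile was subtracted. The 18355 tested probes had every array of the adult or the P10 stage well above background. A gene was taken at its brightest tested probe.

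The contrast was fitted with limma 3.58.1 (lmFit and eBayes, R 4.3.3) on all tested probes, with Benjamini-Hochberg adjustment over all of them and a threshold of 0.05, and the script was tested on simulated data. Intervals are 95% and come from this fit. All zinc transporter genes were named whatever their value, as were the called genes of the other zinc lists and Mt1, Mt2A, Mtf1, Slc39a5, Slc39a6, Ins1, Ins2 and Iapp; likeness was computed for Slc30a8, Slc30a2 and Slc39a4. The uncalled Slc39a10, Gpr39 and Ide were named after their values were seen. The members, lists and the averaging of array pairs were chosen with earlier results of these data known.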

Additional observations from a re-analysis of the deposited data

How the results depend on the processing

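Over the 9 zinc transporter genes and all alternatives, 123 values kept their direction and their side of the threshold, 9 changed sign, 5 lost and 6 gained the call. With quantile normalization 6 genes were called, as in the report, against 57.2% of named genes. With normexp 4 were called, against 29.5%, and with the authors' log2 values 5 of 8, against 58.4%. Leaving out 1 array of an averaged pair gave 6, against 51% to 53.6%. The lowest of these counts, with normexp, came with the lowest of these shares over all named genes. Fits that leave 1 counted sample in a stage are not among these counts. Slc30a8, Slc30a2 and Slc39a4 kept their direction and their call throughout. Changing the filter leaves each change as it was, and the slide as a block gives the same changes as slide 1 only. These alternatives therefore add little to the tally. A sign change was counted only as such even where the call changed too, as for Slc30a3 without Adult replicate 1. Normexp, run on median signals because the files hold no mean signal and so chosen after seeing the data, left Slc30a1 at 0.40 and Slc30a5 at 0.80, short of the threshold. With no filter on dim probes Slc30a5 stood at 0.73, just short of it. Slc30a3 turned to 0.36 with quantile normalization, 0.17 with median scaling, 0.35 with the authors' values and 0.12 with all 6 arrays or with the replicate block, and was -0.77 and called with the slide as a block or on slide 1 only. Slc39a1 turned to 0.11 with median scaling and 0.10 with the slide as a block or on slide 1 only. Slc30a4 was called at -0.53 with all 6 arrays and with the replicate block. Leaving out 1 array gave -0.18 to 0.51 for Slc30a3, -0.65 to -0.44 for Slc30a4, 0.54 to 0.79 for Slc30a5, -0.49 to -0.12 for Slc39a1 and -1.06 to -1.01 for Slc39a14. The causes were not tested. Among the 10 other transporter genes 5 were called, against 3 with normexp (29.5% of named genes). With all 6 arrays 9 were called (70.6% of named genes), and with the replicate block 8 (62.8%). Leaving out 1 array of an averaged pair gave 5 or 6 (51% to 53.6%). Slc39a9 turned to 0.36 with quantile normalization and the authors' values and 0.14 with median scaling, Mtf1 to -0.18 with normexp, and Gpr39, at 0.0898 without Adult replicate 1, ran from -0.37 to 0.09 leaving out 1 array. Of the zinc-binding and sensing genes 7 were called. With the authors' values 4 of 6 tested were called (58.4% of named genes), as with probes well above background on all 6 arrays (52.9%). Leaving out 1 array of an averaged pair gave 6 or 7 (51% to 53.6%). Over all probes 9611 were called (3912 higher, 5699 lower), against 4850 with normexp and 4149 to 13485 leaving out 1 array, the lowest without P10 replicate 3, which leaves 1 counted P10 sample assumed to vary like the adults. Median scaling gave 5087 higher and 4638 lower. The labels name a rat or pool for each array, though the values do not settle whether adult arrays 2 and 3, or P10 arrays 1 and 2, carry separate RNA. Deviations of same-numbered arrays correlated at -0.21, 0.08 and -0.24, so they do not pair the arrays; with the replicate block 7 zinc transporter genes and 11494 probes were called. Mt1 and Mt2A lack 1 adult value and were not tested with all 6 arrays. The mean of 2 probes was not run.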
